A study of Mus musculus with 10 samples.

Results

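The 8 genes described here, Meis1, Meis2, Meis3, Pbx2, Pbx3, Pbx4, Pknox1 and Pknox2, encode homeodomain proteins of the TALE class that work as partners of HOX proteins and of one another. They were chosen by name, as the rows of the count tables whose Ensembl identifiers map to these symbols, and make up 8 of the 25006 gene identifiers listed. The study sequenced the RNA of 10 single neurons, 1 library each, from the solitary tract nucleus, where the brainstem receives signals from the gut and the circulation. The 5 type 2 neurons carry the names 6-2, 10-1, 10-3, 9-2 and 9-4, and the 5 type 1 neurons the names 1-1, 1-2, 4-3, 8-2 and 9-1. The labels separate the types by firing property alone. All 10 came from C57BL/6 mice aged 3 months with LepRb-Cre and a Halo-eYFP reporter, in which neurons that express the leptin receptor carry yellow fluorescent protein. No treatment is named, and cytoplasm and nucleus were drawn into a patch pipette from acute brainstem slices 285 µm thick.

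PBX proteins bind DNA together with HOX proteins. MEIS and PKNOX proteins bind PBX proteins, help to hold them in the nucleus and bind their own DNA motif beside them. In the embryonic hindbrain these complexes take part in setting the identity of segments and of the neurons born there, and several of the genes are still transcribed in adult brain.

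The binding surface shows how close the members are. The lines below give 30 bases of coding sequence within the third homeodomain helix, from its conserved tryptophan codon on, in the helix that lies in the major groove of DNA. They are printed 5′ to 3′ on the coding strand from GENCODE M21 transcripts of GRCm38, with each base that differs from Meis2 in capitals.
Meis1: tggtttatTaatgccCgGagaagaatagtg
Meis2: tggtttatcaatgccagaagaagaatagtg
Meis3: tggtttatTaatgccCgGagaCgaatagtg
Pbx2: tggttCGGTaaCAAGCgaaTTCgCTACAAg
Pbx3: tggtttGGcaaCAAACgaaTCagGTACAAg
Pbx4: tggtttGGcaaCAAAagaaTCCgGTACAAA
Pknox1: tggttCatcaaCgcGagaagaCgaatTCtC
Pknox2: tggttCatcaatgccagGagGCgCatCCtg

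Against Meis2, 3 bases differ in Meis1 and 4 in Meis3, and all 10 codons encode the same residues in the 3 Meis genes. In the Pbx genes 15 to 18 of the 30 bases differ and 5 of 10 codons encode the residue of Meis2. In each Pknox gene 7 bases differ and 9 codons encode that residue. Over a homeodomain window of 63 residues, translated from the same transcripts, Meis1 and Meis2 had 62 identical residues and Meis2 and Meis3 had 61. Pbx2 and Pbx3 shared 61, Pbx2 and Pbx4 58, Pbx3 and Pbx4 56, and Pknox1 and Pknox2 59. Meis2 shared 27 with each Pbx member, 44 with Pknox1 and 45 with Pknox2. At the level of bases the closest pair to Meis2, Meis1, was 84.1% identical to it over the homeodomain coding sequence. Only Pbx2 overlapped the exons of a second gene with reads: it shared 227 bases with Gpsm3 on the same strand, which had under 1 CPM in neuron 9-4 and no count elsewhere.

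Promoter sequence was matched in RefSeq (GRCm38.p6) for 5 of the 8 members, Meis1, Meis2, Meis3, Pbx2 and Pbx4, over 250 bases before to 50 after the start. On both strands none of the 5 held TGACAG, the motif of MEIS and PKNOX proteins, or TGATNNAT, a motif of PBX with HOX. Of 27025 promoters of the same length, 19.3% held the first motif and 9.04% the second. No match says only that these letters are not in this window.

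Levels are given in CPM, that is, counts scaled by the total over all genes to a common library size. Summed counts ran between 9796799 and 41844825 per library, and a count of 0 allows at most 0.0717 to 0.306 CPM by sequencing depth alone. Library size split the neurons: 6 libraries held over 20000000 counts (type 2 neurons 10-1, 10-3, 9-2 and 9-4, and type 1 neurons 8-2 and 9-1) and 4 held fewer (type 2 neuron 6-2, and type 1 neurons 1-1, 1-2 and 4-3). The names of the larger libraries start with 8, 9 or 10 and those of the smaller ones with 1, 4 or 6. A split by library size therefore cannot be told apart from a split by the first number of the name. A gene was called detected in a neuron if it had 3 counts or more and reached 10 CPM. Since the labels name no animal, each type counts as 1 sample: differences are descriptions with no test, an SD is the spread between 5 neurons, and counting intervals cover counting error only. The fluorescent label was set against the leptin receptor gene Lepr, which was detected in 4 type 2 and 2 type 1 neurons. The 8 neuronal markers summed to 7104 to 10748 CPM in type 2 neurons and 6468 to 9408 CPM in type 1 neurons.

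Each neuron held between 3 and 5 detected members, with a median of 4. The type 2 neurons held 5, 4, 5, 5 and 4, and the type 1 neurons 4, 3, 3, 4 and 3. Of all genes, 7367, 6120, 5993, 6645 and 6695 were detected in the type 2 neurons. In the type 1 neurons 5315, 6303, 5700, 7073 and 5580 were. Whether the member counts differ beyond those of all genes was not tested. Meis3 was detected in 9 of the 10 neurons, Pbx4 in 7, Pknox2 in 6, Meis2 in 5, Meis1 and Pbx2 in 4, Pbx3 in 3 and Pknox1 in 2. In the sentences that follow, values run in the order of the neuron names given above.

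**Figure D1:**
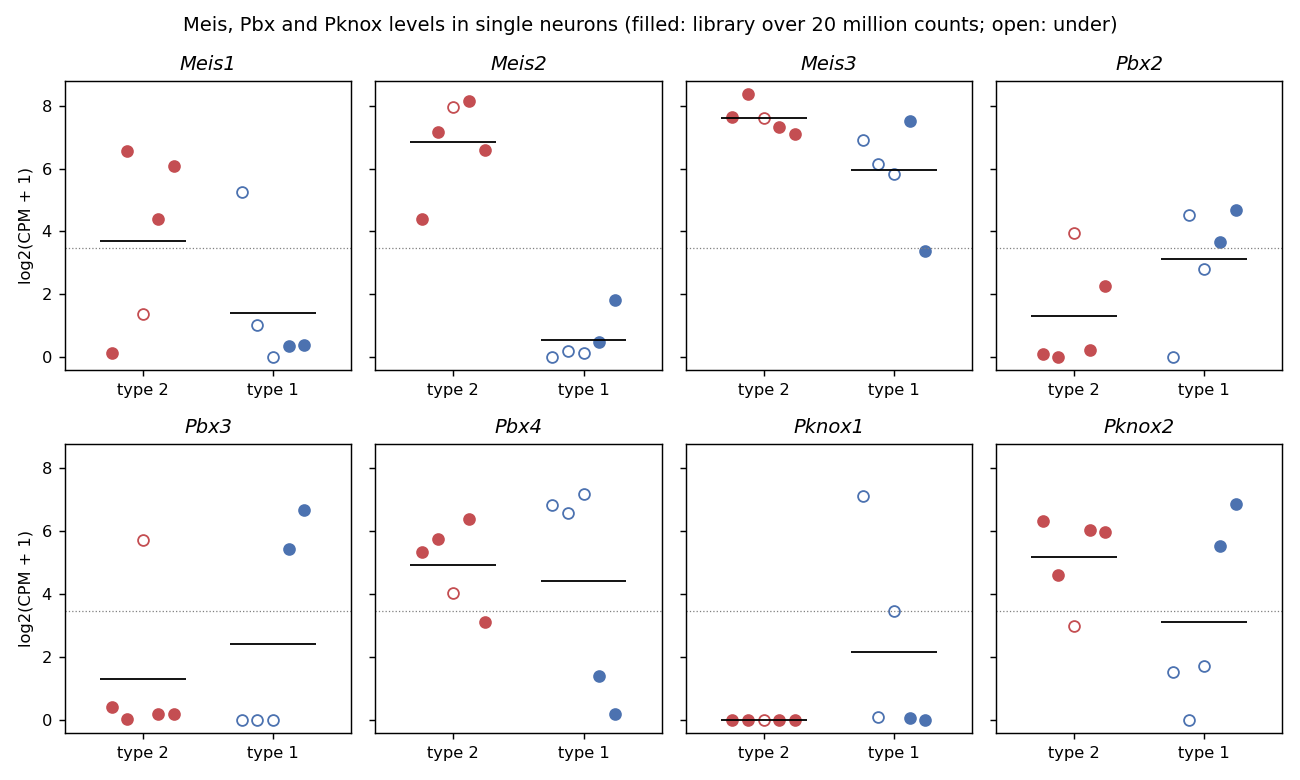
Levels of the 8 members in single neurons, as log2(CPM + 1), type 2 left of type 1. Points are neurons, filled where the library held over 20000000 counts and open where it held fewer, black lines are means, and the dotted line marks 10 CPM. Meis2 is the only panel in which all type 2 points lie above all type 1 points, and the filled and open points separate for Pknox2.

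Among the MEIS genes, Meis2 was the member that separated the types. The gene (ENSMUSG00000027210) lies at chr2:115863064-116065839 on the minus strand (GRCm38) and in mice is known for its part in the making of striatal and olfactory bulb neurons. It had 247, 20.1, 143, 281 and 94.8 CPM in type 2 neurons, against 0, 0.144, 0.102, 0.406 and 2.52 CPM in type 1 neurons. The ranges did not overlap, which held, with type 2 higher, for 1.44% of the 11923 genes whose mean reached 1 CPM. The lowest type 2 neuron, 10-1, still held 835 counts. The difference of mean log2(CPM + 1), type 2 minus type 1, was 6.32, the 15th largest of the 6701 genes that were higher in type 2. Meis2 was detected in 5 of 5 type 2 neurons (47.8 to 100%, exact binomial 95% interval) and 0 of 5 type 1 neurons (0 to 52.2%). With the counts of the 5 neurons added up, type 2 reached 133 CPM (132 to 135, exact Poisson 95% interval), against 0.885 CPM for type 1 (0.719 to 1.08).

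The type 1 counts of Meis2 were few and uneven. They came to 0, 2, 1, 17 and 79, so that neuron 9-1 held 79.8% of them. Type 1 neurons 9-1 and 8-2 were also those with counts of Gcg, the preproglucagon gene that marks type 2 neurons in these libraries: 412 in 9-1 and 590 in 8-2, against 0 or 1 in the other type 1 neurons. Per 100 Gcg counts, Meis2 had 6.95, 0.553, 1.87, 1.59 and 1.63 counts in type 2 neurons. In type 1 it had 2.88 in 8-2, inside the type 2 range, and 19.2 in 9-1, above it. Transfer of RNA between libraries was not tested.

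Markers of microglia, the immune cells of the brain, were higher on average in type 2, but their summed levels overlapped between the types. By the difference of mean log2(CPM + 1), all 14 were higher in type 2, 8 of them past 4-fold, as were 13.5% of the 11923 genes. Their summed level was 1865, 4.23, 47.7, 492 and 1669 CPM in type 2 neurons, against 0.0668, 875, 0.306, 59.5 and 55.7 CPM in type 1 neurons. Within type 2, neuron 10-1 was lowest in both the marker sum and Meis2, and 6-2 and 9-2, with 1865 and 492 CPM of markers, had the highest Meis2 levels. Neuron 10-3, with 47.7 CPM of markers, had 143 CPM of Meis2, and 9-4, with 1669 CPM, had 94.8 CPM. Type 1 neuron 1-2, with 875 CPM of markers, had 0.144 CPM of Meis2. Without 6-2, 9-2 and 9-4 the Meis2 difference was 5.25; the part of microglial RNA in it was not tested. Markers of other cells also overlapped between the types. The 9 astrocyte markers summed to 0.0481 to 189 CPM in type 2 and 0.134 to 106 CPM in type 1. Slc1a3 and Gjb6 were at 0 throughout. The 10 oligodendrocyte markers summed to 39.2 to 220.2 CPM in type 2 and 2.00 to 1045 CPM in type 1, with Olig2 and Sox10 at 0 in every library, and 9 vascular and blood markers to 0.580 to 10.7 CPM in type 2 and 2.87 to 27.6 CPM in type 1.

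Meis3 (ENSMUSG00000041420), at chr7:16175090-16186504 on the plus strand, is known from frog and fish embryos for its part in hindbrain patterning. It had 193, 198, 329, 159 and 137 CPM in type 2 neurons, against 119, 69.7, 56.2, 182 and 9.40 CPM in type 1 neurons. The ranges overlapped through 1 neuron: 8-2 lay among the type 2 neurons, and the other 4 type 1 neurons lay below all 5 of them. Means (± SD over 5 neurons) were 203 ± 74.8 CPM in type 2, against 87.4 ± 65.9 CPM in type 1, a difference of 1.65. Relative to its mean it varied least of the 7 members that had counts in type 2. In type 1, neuron 9-1, at 9.40 CPM, lay just under the detection level, and without it the difference was 1.00.

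Meis1 (ENSMUSG00000020160), at chr11:18879817-19018985 on the minus strand, is best known for its part in blood stem cells and leukaemia. It had 1.56, 0.0961, 93.0, 19.9 and 66.3 CPM in type 2 neurons, against 37.4, 1.01, 0, 0.263 and 0.319 CPM in type 1 neurons. The level was split within each type: 3 type 2 neurons had it and 2 lay under 2 CPM, and 1 type 1 neuron, 1-1, held 94.1% of that type's Meis1 counts. The difference was 2.30 over all 10 neurons, 3.27 without 1-1 and -0.74 in the 4 libraries under 20000000 counts, where 6-2 is the only type 2 neuron.

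Among the PBX genes analysed here, Pbx4 and Pbx3 levels mostly ran in opposite directions from neuron to neuron. The exceptions were 6-2, with both detected, and 9-4, with neither. Pbx4 (ENSMUSG00000031860), at chr8:69832491-69872292 on the plus strand, is known in mice mainly for its transcripts in testis. It had 15.5, 39.9, 53.4, 82.9 and 7.63 CPM in type 2 neurons, against 112, 94.2, 145, 1.62 and 0.127 CPM in type 1 neurons. Type 1 thus held both the 3 highest and the 2 lowest neurons, and the type 2 neurons lay between them. Means were 39.9 ± 30.3 CPM in type 2, against 70.6 ± 66.2 CPM in type 1. The difference on the log2 scale was 0.50, and its sign depended on the averaging: medians over neurons gave -1.22 and the ratio of mean CPM -0.81.

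Pbx3 (ENSMUSG00000038718), at chr2:34171457-34373142 on the minus strand, is needed in mice for the medullary control of breathing at birth. It had 51.6, 0.312, 0.0276, 0.1403 and 0.127 CPM in type 2 neurons, against 0, 0, 0, 42.4 and 102 CPM in type 1 neurons. It was on in 3 neurons, 6-2, 8-2 and 9-1, and at or under 0.312 CPM in the other 7. The difference was -1.12, with a range of -2.23 to -0.06 when neurons were left out in turn. Without 9-1 it was -0.06, without 8-2 -0.37, without 6-2 -2.23, and without 1-1, 1-2 or 4-3 -1.73 each.

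Of the 9 neurons with either gene detected, only 6-2 had both Pbx3 and Pbx4. Over the 10 neurons the log2 levels had r = -0.83 (Spearman's rho -0.87), and r was also -0.83 with each type's mean subtracted. The pair was picked as the lowest Pearson's r among all member pairs. By rho, Meis2 and Pknox1 were lower, at -0.89. Both genes of each point come from 1 library, and r is a description. The split in type 1 followed library size: 8-2 and 9-1, the type 1 libraries over 20000000 counts, had Pbx3, and 1-1, 1-2 and 4-3, under that size, had Pbx4. Type 2 did not show the same split. Its 4 larger libraries had Pbx3 levels of at most 0.312 CPM and Pbx4 levels of 7.63 CPM or more, the lowest, in 9-4, under the detection level. Pbx3 there ran the opposite way with size, at 51.6 CPM in 6-2, the only smaller type 2 library. Neuron 6-2 also had 15.5 CPM of Pbx4. Within the larger libraries the type 2 minus type 1 difference was 4.37 for Pbx4 and -5.87 for Pbx3, and within the smaller ones -2.82 and 5.72. With 1 or 2 neurons of a type on one side of each of these comparisons, several readings cannot be told apart. They are firing type, library size, the first number of the name and the single neuron.

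Pbx2 (ENSMUSG00000034673), at chr17:34591266-34597400 on the plus strand, is a broadly transcribed member of the family. It had 14.3, 0.0721, 0, 0.175 and 3.78 CPM in type 2 neurons, against 0, 21.8, 6.02, 11.7 and 24.5 CPM in type 1 neurons. It was low in both types and detected in 1 type 2 and 3 type 1 neurons, with a difference of -1.83. All 3 neurons with Pbx3 also had Pbx2, and the 4th neuron with Pbx2 was 1-2. The sign turned within the smaller libraries, to 1.50, where neuron 6-2 alone stands for type 2. Its overlap with Gpsm3 leaves reads in those 227 bases uncertain.

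**Figure D2:**
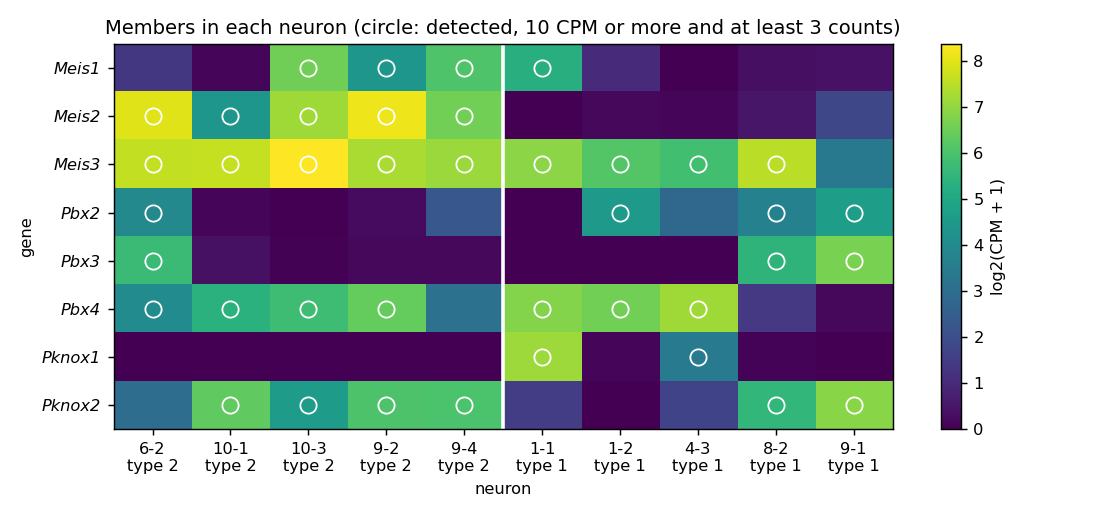
Levels of the members (rows) in the 10 neurons (columns, type 2 left of type 1) as log2(CPM + 1), with a circle where a member was detected. Pbx3 and Pbx4 are circled together in neuron 6-2 alone, and Pknox1 and Pknox2 in none.

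No neuron had both Pknox genes detected at 10 CPM, with Pknox1 detected in only 2 neurons. Those neurons, 1-1 and 4-3, held Pknox2 under that level, at 1.87 and 2.25 CPM. Pknox1 (ENSMUSG00000006705), at chr17:31564734-31607693 on the plus strand, encodes a protein that mouse embryos cannot do without. It had 0 counts in all 5 type 2 neurons, against 140, 0.0722, 10.1, 0.0478 and 0 CPM in type 1 neurons. Over the 5 type 2 libraries together a count of 0 was set at 0.0200 CPM (3 counts). The summed level in type 1, 19.6 CPM, was 982-fold above it. That ratio leaves out counting error in type 1, and with the exact upper limit of 0.0246 CPM for type 2 it would be smaller. It describes summed counts and not most neurons, since the type 1 median was 0.0722 CPM. Neuron 1-1 held 95.4% of the type 1 counts, and without it the ratio was 52.6-fold, from 1.05 CPM. On the log2(CPM + 1) scale, which understates such a difference, the value was -2.16, and -0.91 without 1-1. Both neurons with Pknox1 detected were libraries under 20000000 counts, and 4-3, at 10.1 CPM, was only just past the detection level. In the larger libraries the difference was -0.03.

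Pknox2 (ENSMUSG00000035934), at chr9:36890982-37147407 on the minus strand, encodes a paralogue with more restricted transcription, found in brain. It had 6.97, 78.8, 23.3, 64.2 and 62.5 CPM in type 2 neurons, against 1.87, 0, 2.25, 45.1 and 117 CPM in type 1 neurons. The type ranges overlapped, and the difference was 2.06. Its levels separated by library size and not by type: the 6 larger libraries had 23.3 to 117 CPM and the 4 smaller ones 0 to 6.97 CPM. Such non-overlap, with the larger libraries higher, was shown by 213 of 11923 genes (1.79%). The first numbers of the names split the neurons in the same way as library size. Within the larger libraries the difference was -0.47, and among the neurons whose names start with 9, the number found in both types, it was -0.87. What that number stands for is not given in the labels.

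**Figure D3:**
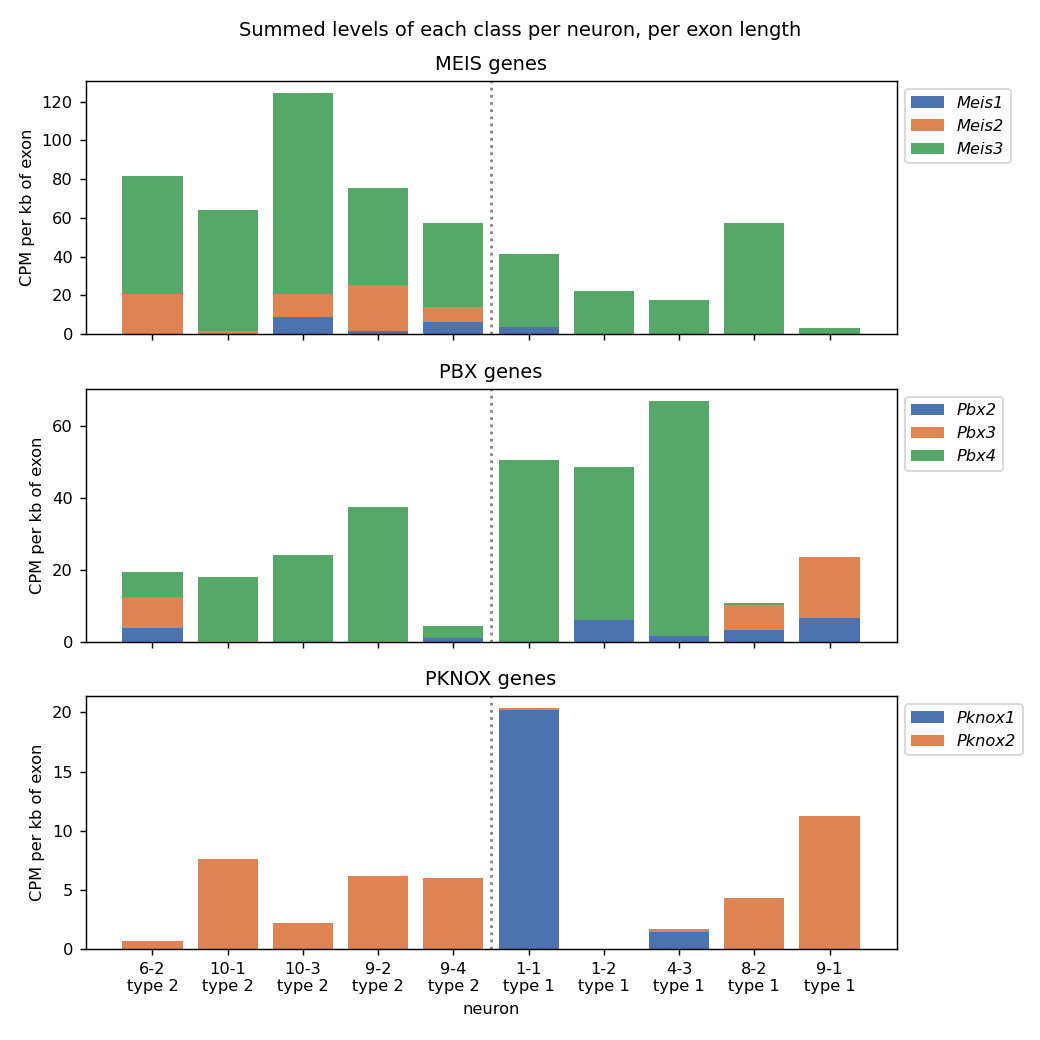
Levels per kb of merged exon, stacked by gene within the MEIS, PBX and PKNOX members, for each neuron (type 2 left of type 1). The MEIS bars are mostly Meis3 in every neuron. The PBX bars are mostly Pbx4 in 7 neurons and mostly Pbx3 in 8-2 and 9-1, with Pbx3 the largest part also in 6-2.

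Between genes, levels were compared per kb of merged exon (CPM per kb). In type 2 the order was Meis3 (64.1 ± 23.6 CPM per kb, SD, n = 5), Pbx4 (18.0 ± 13.7), Meis2 (13.1 ± 8.95), Pknox2 (4.56 ± 2.95), Meis1 (3.44 ± 3.94), Pbx3 (1.71 ± 3.77), Pbx2 (1.01 ± 1.70) and Pknox1, at 0. Meis3 stood above Pbx4 in all 5 type 2 neurons, with ranges that did not overlap, whereas every other neighbouring pair in that order had overlapping ranges. In type 1 the order was Pbx4 (31.8 ± 29.8 CPM per kb), Meis3 (27.5 ± 20.8), Pbx3 (4.74 ± 7.36), Pknox1 (4.33 ± 8.88), Pbx2 (3.52 ± 2.85), Pknox2 (3.21 ± 4.87), Meis1 (0.740 ± 1.57) and Meis2 (0.0526 ± 0.0883). All neighbours in type 1 had overlapping ranges, and the order of Pbx4 and Meis3 turned round, to 45.2 and 45.4 CPM per kb, with the longest transcript in place of merged exons. In type 2 that choice put Meis2 (28.6) above Pbx4 (25.6).

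Added up by class, the MEIS genes had 80.5 ± 26.3 CPM per kb in type 2 and 28.3 ± 21.2 in type 1 (SD, n = 5 each). The lowest type 2 neuron, 9-4, at 57.40 CPM per kb, lay just under the highest type 1 neuron, 8-2, at 57.45 CPM per kb. Meis3 made up 66.5 to 97.4% of that level in type 2 neurons and 91.4 to 99.95% in type 1 neurons, and Meis2 2.61 to 31.0% in type 2 neurons. So the gene that separated the types was the smaller part of the class sum. The 3 PBX genes analysed here summed to 20.7 ± 11.9 CPM per kb in type 2 and 40.1 ± 22.5 in type 1, and the PKNOX genes to 4.56 ± 2.95 in type 2 and 7.54 ± 8.36 in type 1, with overlapping ranges in both classes.

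Set beside all genes, 4 of the 8 members lay past a 4-fold difference. A mean level of 1 CPM or more was reached by 11923 genes, all 8 members among them, and 13.5% of these were at least 4-fold higher in type 2 and 7.78% at least 4-fold lower. Meis1, Meis2 and Pknox2 were past the first limit and Pknox1 past the second. Among the members, 1, Meis2, had ranges that did not overlap. The median difference was 1.08 over the members, 5 of them higher in type 2 and 3 lower, and 0.24 over all genes, with 6701 higher in type 2 and 5222 lower. Single neurons decided these small counts: without 9-4, or without 4-3, 1 member was at least 4-fold higher. At least 4-fold lower were 3 members without 6-2, 2 without 9-4 and 0 without 4-3, and without 8-2 Meis3 joined Meis2 in not overlapping. Scaling by TMM factors or DESeq2 size factors moved the median of all genes up by 0.15 and 0.13, and no member's sign.

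**Figure D4:**
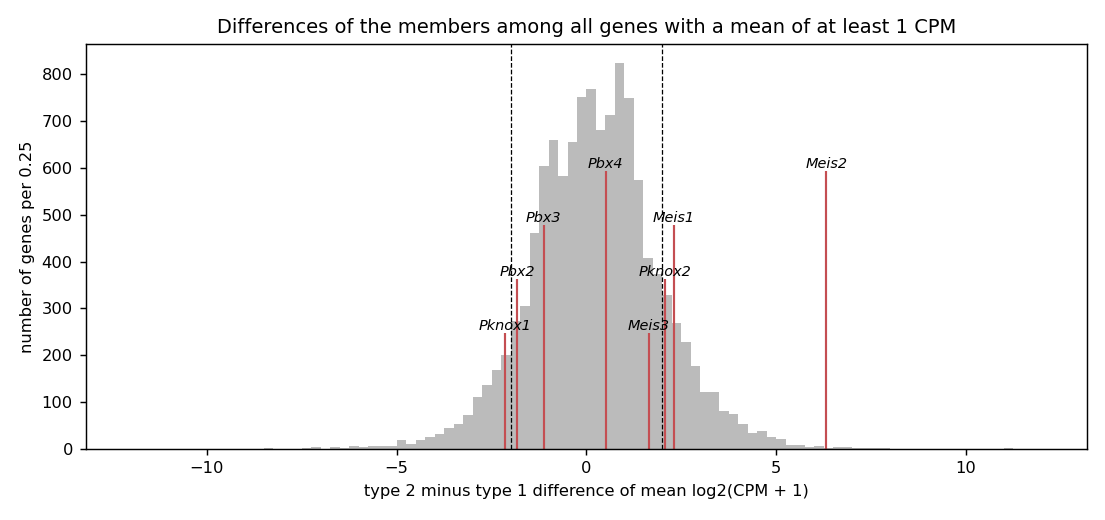
Differences of mean log2(CPM + 1), type 2 minus type 1, of the 11923 genes whose mean reached 1 CPM (grey bars, number of genes per bin), with the members as red lines of arbitrary height and dashed lines at the 4-fold limits. Meis2, at 6.32, lies in the right tail and the other 7 members between -2.16 and 2.30.

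The other genes of this regulatory system did not share one direction. Of the 9 other TALE homeobox genes listed, 5 had a mean of at least 1 CPM; 1 was higher in type 2 and 4 in type 1, with 3 at least 4-fold lower in type 2 and a median difference of -5.14. No type 2 neuron had any of the 9 detected, while each type 1 neuron had 2 to 4. Irx3, an Iroquois gene, averaged 0.244 ± 0.264 CPM in type 2 neurons, against 136 ± 93.9 CPM in type 1 neurons, with neuron 1-1 the exception among type 1 neurons at 1.80 CPM. Irx2, another Iroquois gene, was detected in 0 type 2 and all 5 type 1 neurons. Meis2 and Irx2 thus had opposite patterns among these neurons.

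Hox genes, whose proteins bind with PBX and MEIS partners, were present in every neuron. Of the 24 listed, 6 to 9 were detected in type 2 neurons and 9 or 10 in type 1 neurons. Among the 18 with a mean of at least 1 CPM, 4 were higher in type 2 and 14 in type 1, with 1 at least 4-fold higher and 2 at least 4-fold lower in type 2, and the median difference was -0.68. Hoxb6 had 0, 0.264, 8.95, 0.105 and 59.9 CPM in type 2 neurons, against 160, 93.1, 216, 13.3 and 151 CPM in type 1 neurons. Hoxb3 had 13.8, 31.2, 18.0, 10.8 and 23.8 CPM in type 2 neurons, against 16.7, 23.9, 0, 0.550 and 0.988 CPM in type 1 neurons. So the levels of these 2 genes of the Hoxb cluster leaned in opposite directions, with overlapping ranges in both.

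Genes for proteins that bind or modify PBX and MEIS proteins differed less. Of 18 listed, 17 had a mean of at least 1 CPM, 9 higher in type 2 and 8 in type 1, none past 4-fold, with a median of 0.14. Crbn, a ubiquitin ligase receptor known to bind MEIS2, averaged 90.7 ± 74.5 CPM in type 2 and 172 ± 70.5 CPM in type 1. Type 2 neurons 10-3 and 9-2, at 2.43 and 16.7 CPM of Crbn, had 143 and 281 CPM of Meis2. Neurons 6-2, 10-1 and 9-4 had 139, 141 and 154 CPM of Crbn and 247, 20.1 and 94.8 CPM of Meis2. Crtc3, a CREB coactivator, averaged 23.3 ± 27.4 CPM in type 2 and 7.98 ± 11.7 CPM in type 1. Of 10 neuronal partner factors of MEIS proteins, 3 had a mean of at least 1 CPM, all lower in type 2 and none past 4-fold. One of them, the forkhead gene Foxp1, was detected in 1 type 2 neuron, 9-4 at 188 CPM, and in 4 type 1 neurons.

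Of 14 solitary nucleus and dorsal hindbrain factors, 7 had a mean of at least 1 CPM, 2 at least 4-fold higher and 3 at least 4-fold lower in type 2, with a median of -1.89. Lhx5, a LIM homeobox gene, was like Meis2 detected in 5 type 2 and 0 type 1 neurons. It had 15.4, 81.3, 198, 138 and 47.5 CPM in type 2 neurons, against 0, 0, 0, 0.0717 and 0.0956 CPM in type 1 neurons. Zfhx3, a zinc finger homeobox gene, had the opposite pattern of detection, in 0 type 2 and 5 type 1 neurons. Of 7 neuropeptide genes listed, 4 were at least 4-fold higher and 1 at least 4-fold lower in type 2.

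The genes whose levels ran most closely with each member were sought among 8070 candidates by Pearson's r of log2(CPM + 1) over the 10 neurons. With so few points and so many candidates each of the 7 members searched had close matches, between 0.933 and 0.996, and they are given as a description. For Meis2 they were Arhgap15, a GTPase-activating protein gene, Ints9, an Integrator subunit gene, and Gpc6, a glypican gene, each with r = 0.98 and with r = 0.75, 0.81 and 0.73 once the type means were subtracted. Ints9 averaged 54.7 ± 22.2 CPM in type 2, against 0.0724 ± 0.0470 CPM in type 1. The most opposite gene, Ttc39c, averaged 0.0915 ± 0.114 CPM in type 2 and 117 ± 54.0 CPM in type 1, and its r of -0.95 was -0.22 within types.

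For the members that varied within types the matches were of another kind, with subtraction of the type means changing little. Meis1 ran with Pck2, Pgpep1 and Pot1a (r = 0.97 each) and opposite Ppox (-0.97). Meis3 ran with Grpel1 (0.97), Dync1i1 (0.96), a dynein intermediate chain gene, and Glrb (0.93), the glycine receptor beta subunit gene, and opposite Alkbh2 (-0.86). Pbx2 ran with the kinase gene Jak2 (0.99), Arhgef15 (0.95) and Tk2 (0.94), and opposite Ypel3 (-0.95). Jak2 had 74.5, 0.168, 0, 0 and 17.6 CPM in type 2 neurons, against 0, 88.2, 41.6, 42.1 and 120 CPM in type 1 neurons. It was thus high in the 4 neurons with Pbx2 detected and also in 9-4 and 4-3.

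Pbx3 ran with Zfp239 (r = 0.996) and Acad8 (0.99), and opposite Gpr108 (-0.95). Zfp239 had 71.6, 0.1202, 0, 0.0701 and 0.0636 CPM in type 2 neurons, against 0, 0, 0, 38.4 and 71.4 CPM in type 1 neurons. Pbx4 ran with Prkar2a (0.96), a regulatory subunit gene of protein kinase A, Ascc1 (0.94) and Arfgef3 (0.94), and opposite Alg10b (-0.97). Pknox2 ran with Ncdn (0.96), Hdac11 (0.94) and Eif3b (0.93), and opposite Pam16 (-0.96). Ncdn, unlike Pknox2, was well above the detection level in all 10 neurons. It had 479, 672, 634, 793 and 728 CPM in type 2 neurons, against 332, 266, 464, 805 and 856 CPM in type 1 neurons. Pknox1, detected in 2 neurons, was given no such search.

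**Figure D5:**
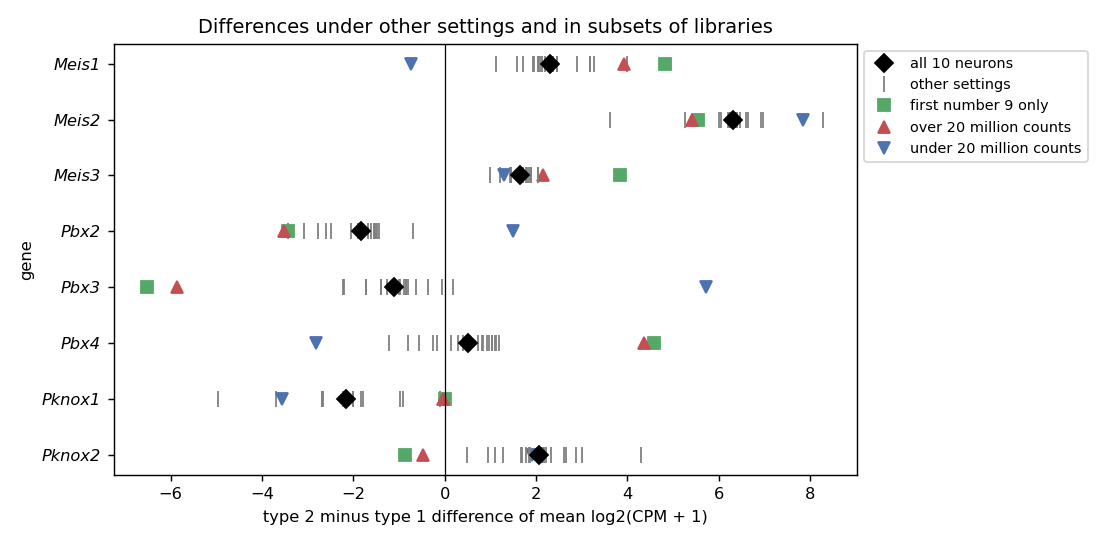
Type 2 minus type 1 differences of mean log2(CPM + 1) for each member with all 10 neurons (black diamonds), in libraries over or under 20000000 counts (triangles), in neurons whose names start with 9 (squares), and under the other settings (grey ticks). Meis2 and Meis3 stay above 0 throughout, while Pbx3 and Pbx4 lie on opposite sides of 0 in the larger and the smaller libraries.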

How the data were processed

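The deposited files hold whole-number counts of reads per gene for each neuron, with no normalization, no cell barcodes and no molecular identifiers, per the file headers and the values. Per the submitters' processing notes, cutadapt 1.13, STAR, HTSeq 0.6.1p1 and DESeq2 were used with mm10. For the strand option, the annotation release and any amplification, nothing is given in the sources used. CPM was computed here as counts over summed gene counts and averaged as log2(CPM + 1), with a pseudocount of 1. Symbols were matched by identifier for 24942 of 25006 genes. Coordinates and exon lengths come from GENCODE M21 (GRCm38, the assembly of mm10).

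Each type was treated as 1 sample, so nothing was tested; the labels name no animal, and the SD between neurons may hold differences between animals. Counting intervals are exact (Poisson for summed levels, Clopper-Pearson for shares, 95%). No library was a copy of another: over 45 pairs, chi-square was at least 634 times its degrees of freedom. Genes of other lists were named as the 2 with the largest differences, given detection in 3 neurons of a type or more, and alike genes as the 3 highest and the lowest r; 1 of these is not reported here. The members and lists were chosen with earlier results of these data known. Scripts were checked on simulated data. Alternatives used edgeR 4.0.16 (TMM) and DESeq2 1.42.0 (size factors) in R 4.3.3; other values came from Python 3.11.15 with numpy 2.4.6, pandas 2.3.3 and scipy 1.17.1.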

Additional observations from a re-analysis of the deposited data

Results flagged for a closer look

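In 15 member and type groups of 5 neurons with counts, the highest or lowest neuron was compared with its nearest neighbour. The measure was the gap in log2(CPM + 1) divided by the group's range. The 95% limit of Dixon's test served as a flag only. Chance takes about 1 in 20 groups past it if values are normally distributed. These levels, many of them under the detection level, may not be, so the rate here is not known. Meis1 in type 1 was past it, with neuron 1-1 at 37.4 CPM and a gap of 0.809 of the range. Meis2 in type 1 was past it, with neuron 9-1 at 2.52 CPM, under the detection level, and a gap of 0.729 of the range. Pbx3 in type 2 was past it, with neuron 6-2 at 51.6 CPM and a gap of 0.938 of the range.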

How the results depend on the processing

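Each member's difference was recomputed under 23 alternatives. Of the 184 values, 169 lay within 1 SD between neurons of the value from all 10 neurons. That SD was wide, at 1.17 (Meis3) to 2.94 (Pbx3). Leaving out 1 neuron of a type shifts that type's mean by less than this SD, so those values could not fall outside it. The Pbx4 value with medians over neurons, -1.22 against 0.50, turned sign and still lay within its SD of 2.56. The count of 169 therefore does not show that a direction held. Meis2 kept its direction in 23 of 23 (3.61 with a pseudocount of 10 to 8.28 with 0.1; 6.00 to 6.93 leaving neurons out in turn), and so did Meis3 (1.00 to 3.84). Of the differences past 4-fold, 3 values turned sign: Pknox2 to -0.87 in neurons with first number 9 and to -0.47 in libraries over 20000000 counts, and Meis1 to -0.74 in libraries under 20000000 counts. The Pknox1 difference was 0.00 in neurons with first number 9, -0.03 in libraries over 20000000 counts and -0.10 with medians over neurons. Fewer than 4-fold, Pbx4 kept its direction in 17, Pbx3 in 21 and Pbx2 in 22; the cause was not tested. The number of members at least 4-fold higher in type 2 was 1 with a pseudocount of 10 and 1 to 4 leaving neurons out in turn. The number at least 4-fold lower was 0 with a pseudocount of 10 or with equal weight per first number, and 0 to 3 leaving neurons out in turn. It was 2 with a pseudocount of 0.1, with first number 9 only, and in libraries over or under 20000000 counts, and 3 without 6-2, 9-2 and 9-4. Members whose ranges did not overlap, with type 2 higher, were 2 in libraries over 20000000 counts and 2 without 6-2, 9-2 and 9-4. Leaving neurons out in turn gave 1 to 2. Members that did not overlap with type 2 lower are not in these counts. No count is given for first number 9 only or for libraries under 20000000 counts, where 1 type has 1 neuron. Fewer neurons overlap less by construction. With detection at 50 CPM the median per neuron was 2.5 members and the type 1 total 10 in place of 17. By Spearman's rho 6 of the 21 most alike genes were kept, and with the longest transcript 9 of 16 places in the level order. No paired analysis was possible because the neuron names of the types share 1 first number, 9, fewer than pairing needs, and no result comes from a test. By counting alone, depth limits levels up to 0.306 CPM in the smallest library. Pknox2 levels far above that, and in type 1 those of Pbx3 and Pbx4, split by library size and so also by first number. The cause was not tested.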
